A study of Homo sapiens with 20 samples.

Results

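Integrins and laminins are the receptor and ligand families through which epithelial cells hold on to the basement membrane. The genes described here are 36 rows of the expression table whose symbols name an integrin alpha or beta subunit or a laminin alpha, beta or gamma chain, out of 24196 genes in the table. They comprise 25 integrin genes and 11 laminin genes. They were picked by symbol, with earlier results of these data known, and 1 further gene that meets the symbol rule is not reported here.

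An integrin is a pair of transmembrane proteins, 1 alpha and 1 beta subunit, and the pair decides which matrix protein is bound. A laminin is a secreted trimer of 1 alpha, 1 beta and 1 gamma chain and is the main adhesive glycoprotein of basement membranes. In ovarian carcinoma, both families are known for their part in attachment of tumor cells to the mesothelium and to the matrix beneath it.

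By the labels, RNA was sequenced from orthotopic tumors (the study's text calls the treated material cells) of OVCAR8, an established human high-grade serous ovarian carcinoma cell line, grown in NSG mice, which are severely immunodeficient and lack mature T, B and NK cells. The PBS group (vehicle control) had 4 libraries and the gluconate group had 4, and the comparison asked how tumors given sodium gluconate, described in the study as a modulator of TMEM87A, differed in expression. In the animal methods of the study, luciferase-tagged OVCAR8 cells were injected into the ovarian fat pad of mice aged 6 weeks, and the efficacy arm received PBS or 1 mg/kg sodium gluconate intraperitoneally once a week for 35 days. The labels give neither the dose nor the day of the sequenced tumors and do not tie a library to an animal, so p values measure the spread between libraries. All 8 tumors came from 1 cell line, no label names a knockout in them, and the mouse host supplied the stroma. A figure legend of the study describes the PBS and gluconate tumors as OVCAR8-sgNC-luc, the control line of its knockout experiments.

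The values are FPKM, fragments per kilobase of gene and scaled to the fragments of the library. The number of fragments behind the FPKM values was 39325749 to 46551535 in 7 libraries and 3953206 in PBS replicate 4, and 15514 genes were above 0 in that library against 19991 to 20251 in the others. Its Pearson correlation with the other libraries was 0.938 to 0.951 over the tested genes, a description over genes of libraries that differ in depth. Results are therefore given with and without PBS replicate 4. Of genes known from ovarian carcinoma cells, PAX8 was at 32.4 to 50.7 FPKM and KRT8 at 700 to 1051 FPKM in these tumors, while KRT19 did not exceed 0.0357 FPKM and MUC16 did not exceed 0.00168 FPKM in any library. Of leukocyte and endothelial genes, PTPRC did not exceed 0.0165 FPKM and CDH5 did not exceed 0.0301 FPKM, while CD68 (19.7 to 28.1), EGFL7 (6.06 to 8.49) and ESAM (3.87 to 8.08) were detected in every library. Whether mouse reads were separated is not stated, so these values bear on human transcripts, or on mouse reads that matched them.

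Differences between groups are log2 fold changes of FPKM + 0.1, gluconate minus PBS, and the pseudocount makes them understate the change of low genes. They were tested with limma over the 12486 genes with a mean of at least 0.5 FPKM over the 8 libraries. Of the members, 23 passed this minimum (16 integrins and 7 laminins) and 13 did not. In bulk tumors, fewer cells of a type and less RNA per cell cannot be told apart.

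Of a list of 13 ovarian carcinoma genes, 8 were tested, and KRT7, a simple epithelial keratin gene, alone passed an unadjusted p of 0.05, at 125 to 335 FPKM in PBS and 293 to 393 FPKM in gluconate libraries (log2 fold change 0.73, unadjusted p = 0.0201 and adjusted p = 0.740, limma with Benjamini-Hochberg adjustment). Leaving out PBS replicate 4 gave 0.48 (unadjusted p = 0.0269, limma). KRT8 (-0.20) and KRT18 (-0.33) did not pass. PBS replicate 4 also stood apart in WT1, at 6.58 FPKM against 1.07 to 1.82 in the others, and in MECOM, at 2.21 FPKM against at most 0.204. The part of these genes in the members' values was not tested.

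The 3 members that passed an unadjusted p of 0.05 were ITGB5, ITGB1 and ITGAV, and the sequence just before 1 RefSeq start site of each is shown so that the regions can be compared by eye. RefSeq gives 2 start windows for ITGB1, 3 for ITGB5 and 2 for ITGAV, and the one nearest the start of a principal transcript in GENCODE 29 was taken. Each is written 5′ to 3′ on the strand of the gene (RefSeq, build GRCh38.p14), and covers the part of the 250 bases before the start that lies outside GENCODE exons of the gene. ITGB1 is on the minus strand at chr10:32958233-32958480, ITGB5 on the minus strand at chr3:124887366-124887599, and ITGAV on the plus strand at chr2:186589806-186590055. The ITGB1 and ITGB5 stretches lie inside the annotated gene spans, which reach further upstream, to 33005792 and 124901418. Capitals mark GGAATG (TEAD) or GGGCGG (GC box) on either strand.
ITGB1: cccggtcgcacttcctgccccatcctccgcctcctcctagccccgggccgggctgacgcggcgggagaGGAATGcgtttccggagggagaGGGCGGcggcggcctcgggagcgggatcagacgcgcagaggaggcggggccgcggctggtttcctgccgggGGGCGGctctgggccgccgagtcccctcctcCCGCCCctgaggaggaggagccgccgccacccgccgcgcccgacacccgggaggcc
ITGB5: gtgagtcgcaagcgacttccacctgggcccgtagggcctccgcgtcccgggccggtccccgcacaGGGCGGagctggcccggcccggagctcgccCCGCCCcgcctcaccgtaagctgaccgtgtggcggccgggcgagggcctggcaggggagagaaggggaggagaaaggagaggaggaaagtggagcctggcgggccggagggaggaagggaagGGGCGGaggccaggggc
ITGAV: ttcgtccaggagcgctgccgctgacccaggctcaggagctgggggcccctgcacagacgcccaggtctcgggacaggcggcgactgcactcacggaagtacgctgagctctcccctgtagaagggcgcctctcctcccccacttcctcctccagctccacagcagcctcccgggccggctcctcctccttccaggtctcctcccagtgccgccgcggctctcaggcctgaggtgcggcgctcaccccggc

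The ITGB1 stretch held 1 GGAATG and 3 GGGCGG matches, the ITGB5 stretch held 3 GGGCGG matches, and the ITGAV stretch held neither. None of these stretches held TGANTCA (AP-1, whose letters read the same on both strands). Over all 35116 RefSeq windows of 250 bases before a start, 11.9% held GGAATG, 42.6% held GGGCGG and 6.57% held TGANTCA on either strand. The stretches had a GC content of 78.2% for ITGB1, 74.8% for ITGB5 and 70.8% for ITGAV, beside a median of 58% over all windows. A match is a description of letters and not a binding site.

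The tumors held an integrin repertoire led by ITGB1 and ITGA3, whose products pair as a laminin receptor. Levels are compared between genes in FPKM, which is per length. ITGB1, the common beta subunit of most matrix integrins, made up 74.3% to 81.7% of the summed FPKM of the 8 beta genes in each library. ITGA3, the alpha subunit that binds laminin-332 and laminin-511, made up 51.4% to 60.1% of the summed FPKM of the 17 alpha genes. In mean FPKM over the 8 libraries, the order was ITGB1 at 158, ITGA3 at 133, LAMB3 at 41.8, ITGAV at 38.3, LAMC1 at 32.9, LAMB2 at 28.3, ITGA5 at 26.9, ITGA6 at 23.8, ITGB5 at 21.9, LAMB1 at 21.5, LAMA1 at 20.7 and ITGB4 at 12.1. The ranges of ITGB1 (134 to 178) and ITGA3 (111 to 161) overlapped. Those of ITGA3 and LAMB3 (30.5 to 69.4) did not, and from LAMB3 on each pair of neighbours in this order overlapped.

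**Figure D1:**
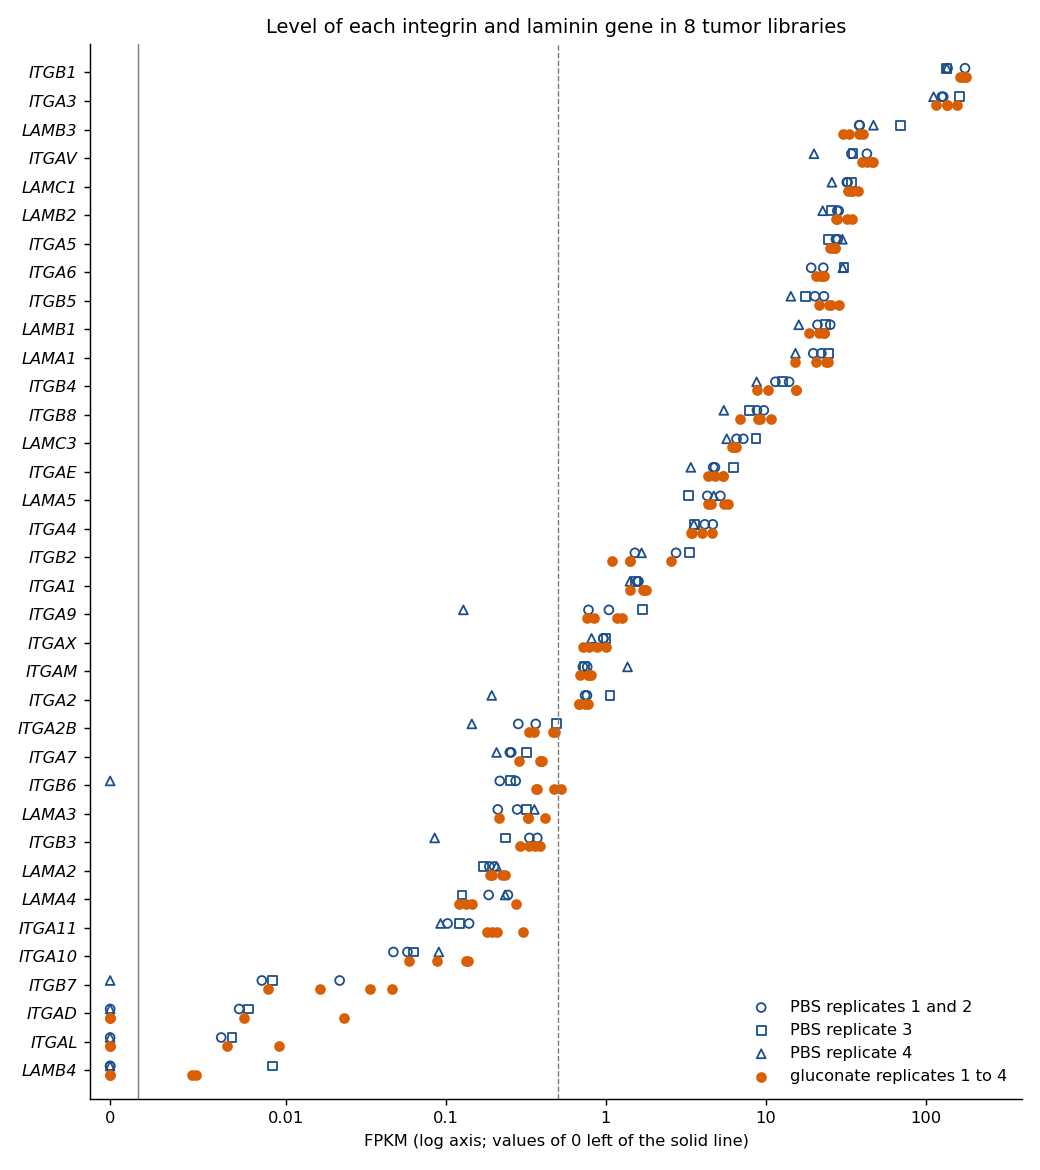
FPKM (log axis) of the 36 integrin and laminin genes, 1 row per gene in order of mean level, with open blue symbols for the 4 PBS libraries and filled orange circles for the 4 gluconate libraries. ITGB1 and ITGA3 stand at the top and 13 genes have a mean under the dashed line at 0.5 FPKM.

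At an unadjusted p under 0.05, 3 of the 23 tested members were higher in gluconate tumors and 0 were lower, where 3.13% of all tested genes were higher and 1.49% were lower. All 3 were integrin subunits. No difference passed the adjustment over all genes: the adjusted p of each of the 3 was 0.740 (limma, Benjamini-Hochberg), and 0% of all tested genes passed. Of the 23 tested members, 0 had a fitted log2 fold change of 1 or more in size. Of the 23, 15 lay above 0 and 8 below, with a median log2 fold change of 0.07 beside 0.07 over all tested genes, and this median was below 0 by the voom fits (-0.015 and -0.00303). The groups of 0 tested members were free of overlap, where 2.08% of all tested genes lay wholly higher in gluconate and 1.41% wholly lower.

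ITGB5, the beta subunit that pairs with the alpha V subunit to bind vitronectin, was measured in PBS replicates 1 to 4 at 23.0, 20.2, 17.7 and 14.3 FPKM and in gluconate replicates 1 to 4 at 25.5, 21.4, 24.8 and 28.4 FPKM. Gluconate replicates 1, 3 and 4 lay above every PBS library, and gluconate replicate 2 lay below PBS replicate 1. The log2 fold change was 0.42 (SE 0.15, unadjusted p = 0.0179 and adjusted p = 0.740, limma with Benjamini-Hochberg adjustment). Leaving out PBS replicate 4 gave 0.30 (SE 0.11, unadjusted p = 0.0236).

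ITGB1 was at 175, 136, 134 and 135 FPKM in the PBS libraries and at 171, 178, 175 and 163 FPKM in the gluconate libraries. PBS replicate 1 lay among the gluconate libraries, and the other 3 PBS libraries lay below all of them. The log2 fold change was 0.25 (SE 0.09, unadjusted p = 0.0239 and adjusted p = 0.740, limma with Benjamini-Hochberg adjustment). Leaving out PBS replicate 4 gave 0.22 (SE 0.09, unadjusted p = 0.0433).

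ITGAV, the alpha subunit of the vitronectin and fibronectin receptors that recognise the RGD sequence, was at 42.7, 34.2, 34.97 and 19.9 FPKM in the PBS libraries and at 39.6, 43.0, 46.3 and 45.7 FPKM in the gluconate libraries. PBS replicate 1 lay between gluconate replicates 1 and 2, and PBS replicate 4 was the lowest library by far. The log2 fold change was 0.45 (SE 0.20, unadjusted p = 0.0479 and adjusted p = 0.740, limma with Benjamini-Hochberg adjustment). Leaving out PBS replicate 4 gave 0.23 (SE 0.09, unadjusted p = 0.0314).

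These 3 calls were sensitive to single libraries. When PBS replicate 3 was left out, ITGB5 alone passed the unadjusted threshold, and when gluconate replicate 4 was left out, ITGB1 alone did. Over 18 other settings, ITGB5 passed in 17, ITGB1 in 13 and ITGAV in 9, and all 3 stayed above 0 in each. Scaling the libraries by their median ratio left ITGB5 (0.36) and ITGAV (0.39) past it, with ITGB1 at 0.19 and an unadjusted p of 0.0742 (limma). It also brought LAMB3 past it on the lower side (-0.48, unadjusted p = 0.0369, limma), and moved the calls over all genes from 391 higher and 186 lower to 360 higher and 348 lower.

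The summed FPKM of the 8 beta genes was 220, 183, 176 and 165 in the PBS libraries and 223, 222, 221 and 216 in the gluconate libraries. PBS replicate 1 again lay within the gluconate range, and the spread was wider among PBS libraries (SD 23.97, n = 4) than among gluconate libraries (SD 3.32, n = 4). The sum of the 17 alpha genes was 203 to 268 in PBS and 223 to 264 in gluconate libraries, so those ranges overlapped widely.

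None of the other abundant integrins passed the test. ITGA3 was at 125, 128, 161 and 111 FPKM in the PBS libraries and 134, 115, 156 and 135 in the gluconate libraries, with a log2 fold change of 0.04 (SE 0.13). Its groups overlapped through most of their range, and the sign turned to -0.03 without PBS replicate 4. ITGA5, the alpha subunit of the fibronectin receptor, was at 27.3, 28.1, 24.6 and 29.99 FPKM in PBS and 25.2, 26.2, 26.9 and 27.0 FPKM in gluconate libraries, with all gluconate libraries inside the PBS range and a log2 fold change of -0.06 (SE 0.08).

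ITGA6 and ITGB4 encode the pair that anchors hemidesmosomes to laminin-332. ITGA6 was at 22.8, 19.1, 30.7 and 30.2 FPKM in PBS and 21.9, 22.9, 20.4 and 21.9 FPKM in gluconate libraries, so PBS replicates 3 and 4 stood above all others. Its log2 fold change was -0.21 (SE 0.15, unadjusted p = 0.187, limma). It became -0.34 (unadjusted p = 0.0187, limma) without PBS replicate 2, the lowest library. Without PBS replicate 3 it was -0.12 (unadjusted p = 0.446, limma), and without PBS replicate 4 also -0.12 (unadjusted p = 0.381, limma). ITGB4 was at 11.4, 13.9, 12.7 and 8.74 FPKM in PBS and 15.4, 8.82, 10.3 and 15.5 FPKM in gluconate libraries, with overlapping groups and a log2 fold change of 0.07 (SE 0.21). The level of ITGA6 was 1.37 to 3.45 times that of ITGB4 across libraries, and highest in PBS replicate 4.

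Among the other tested integrins, none passed the unadjusted threshold with or without PBS replicate 4. ITGB2 had a log2 fold change of -0.48 with all libraries (unadjusted p = 0.151, limma). It passed on the lower side (-0.71, unadjusted p = 0.0367, limma) when gluconate replicate 2 was left out. Without PBS replicate 3 it had -0.29 (unadjusted p = 0.373, limma), and without gluconate replicate 3 it had -0.33 (unadjusted p = 0.342, limma). ITGB8, a beta subunit that pairs with alpha V, was at 5.45 to 10.7 FPKM, ITGAE at 3.39 to 6.26 FPKM and ITGA4, an alpha subunit of the VCAM1 and fibronectin receptors, at 3.43 to 4.65 FPKM. ITGA1, an alpha subunit of a collagen receptor, was at 1.41 to 1.78 FPKM. The genes of the leukocyte integrins ITGB2, ITGAX and ITGAM were at 1.096 to 3.33, 0.722 to 1.00 and 0.691 to 1.36 FPKM, in libraries where PTPRC did not exceed 0.0165 FPKM. Of the leukocyte list, 9 of 12 genes were in the table, and their summed FPKM was 27.6 to 30.3 in PBS and 21.4 to 28.6 in gluconate libraries, most of it CD68 at 19.7 to 28.1.

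**Figure D2:**
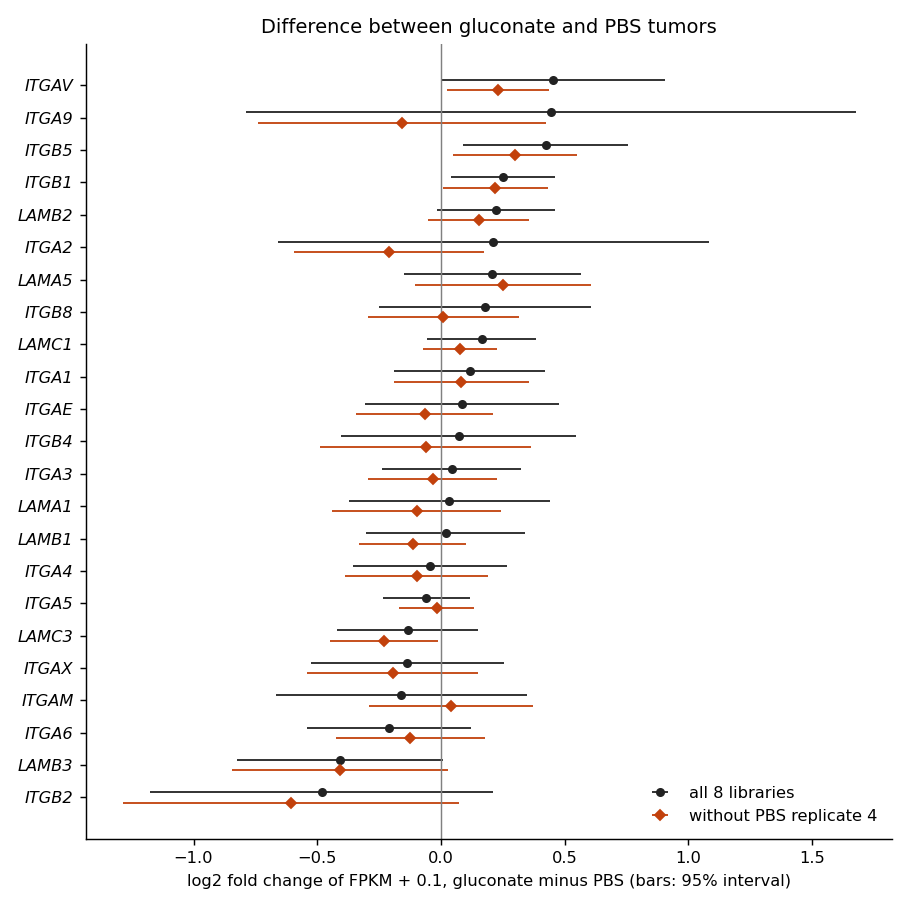
Log2 fold change of FPKM + 0.1 (gluconate minus PBS) with its 95% interval for the 23 tested members, in black with all 8 libraries and in orange without PBS replicate 4. The intervals of ITGAV, ITGB5 and ITGB1 lie above 0 in both, that of LAMC3 lies below 0 only without PBS replicate 4, and the estimates of ITGA2 and ITGA9 move from above to below 0, with narrower intervals, without that library.

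The laminin genes showed an uneven set of chains. LAMA1, the alpha chain of laminin-111, held 69.7% to 86.2% of the summed alpha chain FPKM, and LAMA5, the alpha chain of laminin-511, held 11.6% to 26.7%. The sum of the 5 alpha genes was 20.8 to 29.5 FPKM and that of the 4 beta genes 81.0 to 119 FPKM. In each library the beta sum was 3.01 to 4.18 times the alpha sum. LAMA3, the alpha chain of laminin-332, was at 0.211 to 0.419 FPKM, and LAMB3, the beta chain known from the same trimer, was at 72.6 to 216 times its level.

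LAMB3 was at 38.2, 38.5, 69.4 and 46.9 FPKM in the PBS libraries and at 33.1, 37.9, 40.2 and 30.5 FPKM in the gluconate libraries. PBS replicate 3 was the highest, at 1.48 times the next (rank 114 by that ratio among the 12486 tested genes), and the groups overlapped through gluconate replicate 3. The log2 fold change was -0.41 (SE 0.19, unadjusted p = 0.0531, limma), and without PBS replicate 3 it was -0.22 with an unadjusted p of 0.107 (limma). Over 18 other settings it ranged from -0.51 to -0.22 and passed an unadjusted p of 0.05 in 8, among them median ratio scaling (-0.48), quantile normalization (-0.43), voom (-0.41) and the replicate block (-0.41), with unadjusted p values of 0.0242 to 0.132 over the 18 (limma).

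PBS replicate 3 was the highest library for 10 of the 23 tested members (ITGA2, ITGA3, ITGA6, ITGA9, ITGAE, ITGAX, ITGB2, LAMA1, LAMB3 and LAMC3), where it was the highest for 19.1% of all tested genes. It was the lowest for ITGA5, ITGB1 and LAMA5. The endothelial marker TIE1 was also highest there, at 2.86 FPKM against 0.203 to 0.896 in the others, while ESAM, at 7.51 FPKM, was higher than in the other PBS libraries, EGFL7 was at 7.77 FPKM, within its range elsewhere, and CDH5 was at 0 in all PBS libraries. TIE1 alone of the 3 tested endothelial genes passed an unadjusted p of 0.05, with a log2 fold change of -1.28 (SE 0.56, unadjusted p = 0.0470 and adjusted p = 0.740, limma with Benjamini-Hochberg adjustment), and leaving out PBS replicate 4 gave -1.22 (unadjusted p = 0.0657, limma). The part of endothelial transcripts in these values was not tested.

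LAMC1, LAMB2, LAMB1 and LAMA1 did not pass the unadjusted threshold with all libraries. LAMC1, the gamma chain of most laminins, was at 31.99, 32.4, 34.3 and 25.8 FPKM in PBS and 34.4, 32.7, 34.3 and 37.5 FPKM in gluconate libraries, with a log2 fold change of 0.16 (SE 0.10). Leaving out PBS replicate 4 gave 0.077 (SE 0.066, unadjusted p = 0.271, limma). LAMB2, a laminin beta chain, was at 27.9, 28.4, 25.7 and 22.6 FPKM in PBS and 27.8, 27.6, 34.7 and 32.1 FPKM in gluconate libraries. Its log2 fold change was 0.22 (SE 0.11, unadjusted p = 0.0658, limma), and without gluconate replicate 2 it was 0.27 (unadjusted p = 0.0486, limma). Without PBS replicate 4 it was 0.15 (unadjusted p = 0.126, limma), and without gluconate replicate 3 it was 0.16 (unadjusted p = 0.189, limma). In both genes PBS replicate 4 was the lowest library and the groups overlapped.

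LAMB1, the beta chain of laminin-111, was at 21.0, 25.2, 23.6 and 16.0 FPKM in PBS and 22.9, 23.2, 21.4 and 18.5 FPKM in gluconate libraries. LAMA1 was at 19.7, 22.2, 24.5 and 15.3 FPKM in PBS and 20.6, 24.2, 23.7 and 15.2 FPKM in gluconate libraries. Their log2 fold changes were 0.02 (SE 0.14) and 0.03 (SE 0.18), and both turned below 0 without PBS replicate 4, at -0.11 and -0.10, neither past the test. LAMA5 was at 3.29 to 5.83 FPKM, with a log2 fold change of 0.21 (SE 0.16).

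LAMC3, a gamma chain of minor laminins, was at 6.55, 7.22, 8.66 and 5.69 FPKM in PBS and 6.25, 6.41, 6.49 and 6.14 FPKM in gluconate libraries. PBS replicates 1 to 3 lay above all gluconate libraries and PBS replicate 4 below them. With all libraries the log2 fold change was -0.13 (SE 0.13, unadjusted p = 0.317, limma). Without PBS replicate 4 it was -0.23 (SE 0.10, unadjusted p = 0.0416 and adjusted p = 0.802, limma with Benjamini-Hochberg adjustment).

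Without PBS replicate 4, 3 members were higher (ITGB5, ITGAV and ITGB1) and 1 was lower (LAMC3) at an unadjusted p under 0.05, where 2.83% of all tested genes were higher and 3.36% lower. The adjusted p of each of the 4 was 0.802 (limma, Benjamini-Hochberg), and 0% of all tested genes passed. LAMC3 alone among the tested members had groups without overlap, on the lower side, where 3.65% of all tested genes did so, and 0 members did so on the higher side, where 2.41% did. The balance also turned: 9 members lay above 0 and 14 below, with a median of -0.06 beside -0.00332 over all tested genes.

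PBS replicate 4 was the lowest library for 12 of the 23 tested members, where it was the lowest for 58% of all tested genes. ITGA2 and ITGA9, 2 of the 23, lay at least 2-fold below all other libraries in it, as did 6.34% of all tested genes. ITGA2, the alpha subunit of a collagen receptor, was at 0.741, 0.761, 1.06 and 0.194 FPKM in PBS and 0.737, 0.778, 0.674 and 0.680 FPKM in gluconate libraries. The value of PBS replicate 4 came from 6 fragments, with a 95% Poisson interval of 0.0710 to 0.421 FPKM that covers counting error only and lies below the other 7 libraries. ITGA9, whose product pairs with beta 1 to bind tenascin, was at 0.778, 1.04, 1.69 and 0.129 FPKM in PBS and 0.757, 1.17, 1.27 and 0.845 FPKM in gluconate libraries. Here PBS replicate 4 rested on 4 fragments (0.0351 to 0.330 FPKM), again below the other 7 libraries.

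Without that library, the log2 fold change of ITGA2 went from 0.21 to -0.21 and that of ITGA9 from 0.44 to -0.16, with no test passed in either fit. ITGAM went the other way, with 26 fragments or 1.36 FPKM in PBS replicate 4 while the other libraries ranged from 0.691 to 0.810 FPKM. SPI1, a myeloid transcription factor gene on the leukocyte list, was highest in the same library, at 4.26 FPKM against 0.971 to 2.06. The leukocyte list summed to 30.3 FPKM there, the highest of all libraries, against 21.4 to 29.97 in the others. The fibroblast list of 9 genes summed to 45.3 FPKM in PBS replicate 4 and to between 130 and 192 FPKM in each other library, nearly all of it COL1A1, with COL1A2, PDGFRA, DCN and THY1 under 0.5 FPKM throughout. Of its 5 tested genes none passed an unadjusted p of 0.05, and their median log2 fold change was 0.49, with 5 above 0, beside 0.07 over all tested genes, and 0.20 without PBS replicate 4, with 4 above 0. The part of these genes in the values of PBS replicate 4 was not tested.

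**Figure D3:**
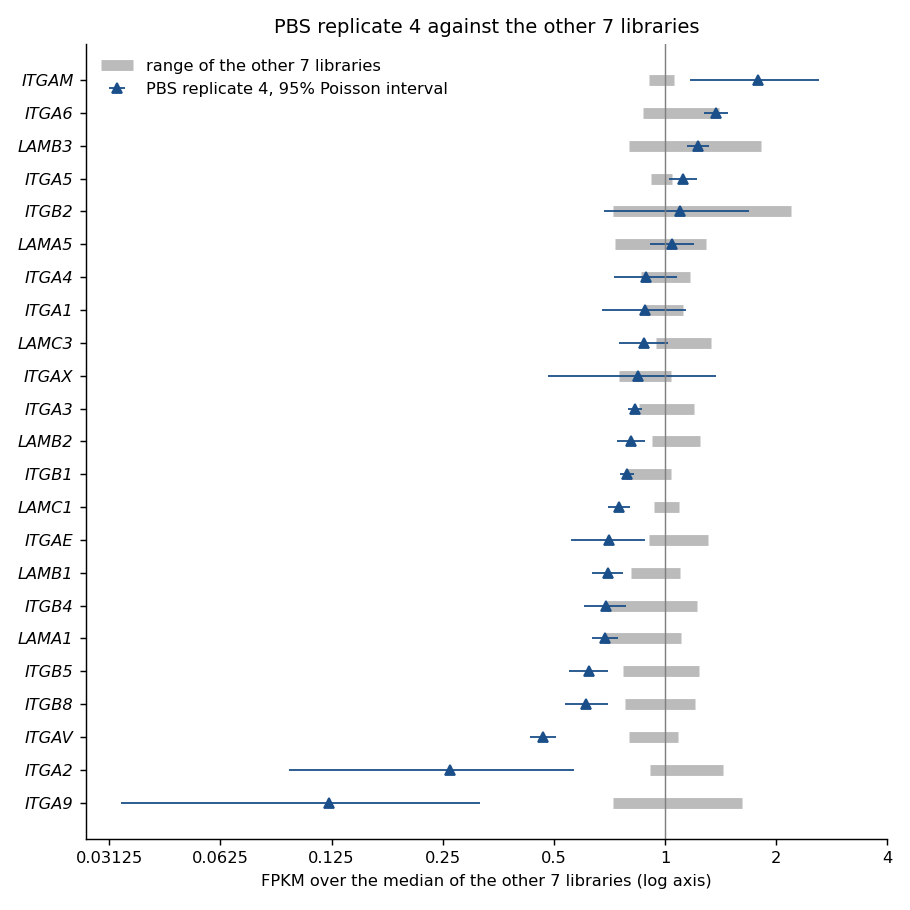
FPKM of each tested member in PBS replicate 4 (triangle, with its 95% Poisson interval) and range of the other 7 libraries (grey bar), both over the median of the other 7, on a log axis. ITGA2 and ITGA9 lie below the other libraries beyond counting error, as do better-counted genes such as ITGAV and ITGB8, and ITGAM lies above.

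Of the 13 members below the minimum, ITGB6 and ITGA11 had groups without overlap. ITGB6, a beta subunit that pairs with alpha V on epithelial cells and activates TGF-beta, was at 0.217, 0.273, 0.254 and 0 FPKM in PBS and 0.369, 0.473, 0.526 and 0.368 FPKM in gluconate libraries, from 46, 59, 47 and 0 fragments against 69, 94, 96 and 73. Every gluconate library lay above every PBS library. A count of 0 fragments in PBS replicate 4 allows up to 0.164 FPKM (3 fragments), which is below the other 7 libraries.

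ITGA11, the alpha subunit of a collagen receptor known from fibroblasts, was at 0.102, 0.140, 0.122 and 0.0927 FPKM in PBS and 0.182, 0.302, 0.210 and 0.193 FPKM in gluconate libraries. Its groups did not overlap either, from 51, 71, 53 and 4 fragments against 80, 141, 90 and 90. In a fit with no minimum over all 24196 genes, the log2 fold change was 1.06 (SE 0.43, unadjusted p = 0.0368) for ITGB6 and 0.58 (SE 0.18, unadjusted p = 0.0110) for ITGA11, each with an adjusted p of 0.802 (limma, Benjamini-Hochberg). In that fit 3.09% of all genes were higher at an unadjusted p under 0.05, and 2% had groups without overlap on the higher side. When PBS replicate 4 was also left out, a fit chosen after seeing the data, the log2 fold change of ITGB6 was 0.61 (SE 0.18, unadjusted p = 0.0118) and that of ITGA11 was 0.53 (SE 0.17, unadjusted p = 0.0177), each with an adjusted p of 0.881 (limma, Benjamini-Hochberg), and the groups of both still did not overlap.

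The other 11 low members did not separate the groups. ITGB3, the beta subunit of the platelet and endothelial RGD receptors, was at 0.373, 0.333, 0.236 and 0.0852 FPKM in PBS and 0.292, 0.362, 0.330 and 0.390 FPKM in gluconate libraries, with 2 fragments in PBS replicate 4. ITGA2B, ITGA7, LAMA3, LAMA2, LAMA4 and ITGA10 had means of 0.0846 to 0.365 FPKM. ITGB7, ITGAD, ITGAL and LAMB4 did not exceed 0.0463 FPKM in any library.

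Genes that work with integrins were described from a pair of lists, chosen with earlier results of these data known. Of 34 activators and focal adhesion adaptors, 31 were tested, and 2 were higher and 2 lower at an unadjusted p under 0.05 (6.45% in each direction, where 3.13% of all tested genes were higher and 1.49% lower), with a median log2 fold change of 0.16 beside 0.07 over all tested genes. RAP1A, a small GTPase that switches integrins on, was at 11.7, 12.1, 12.4 and 15.0 FPKM in PBS and 10.7, 9.50, 9.62 and 8.98 FPKM in gluconate libraries, without overlap, and had a log2 fold change of -0.39 (SE 0.10, unadjusted p = 0.0036 and adjusted p = 0.740, limma with Benjamini-Hochberg adjustment). FERMT1, which encodes kindlin-1, had -0.38 (SE 0.17), TGFB1I1, which encodes the focal adhesion protein Hic-5, had 0.27 (SE 0.10), and LIMS2, which encodes PINCH-2, had 0.49 (SE 0.20). With PBS replicate 4 left out, 2 were higher and 2 lower, where 2.83% of all tested genes were higher and 3.36% lower, and the median was 0.02 beside -0.00332. The count of 4 became 7 without PBS replicate 1, 2 without gluconate replicate 3, and 1 without PBS replicate 3 or gluconate replicate 4.

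Of 30 laminin partners and other integrin ligands, 22 were tested, and 5 (22.7%) were higher and 0 lower at an unadjusted p under 0.05, where 3.13% of all tested genes were higher and 1.49% lower. The median log2 fold change was 0.31 beside 0.07 over all tested genes. This list too was chosen with earlier results of these data known. NPNT, which encodes the integrin ligand nephronectin, was at 3.43, 3.52, 3.30 and 1.34 FPKM in PBS and 4.15, 6.39, 4.40 and 4.67 FPKM in gluconate libraries, without overlap, and had a log2 fold change of 0.81 (SE 0.29, unadjusted p = 0.0211 and adjusted p = 0.740, limma with Benjamini-Hochberg adjustment). The tetraspanin gene CD82 had 0.85 (SE 0.35), also without overlap, at 1.99 to 6.95 FPKM in PBS and 7.04 to 9.52 FPKM in gluconate libraries. Another tetraspanin gene, CD63, had 0.17 (SE 0.07), THBS1, the gene of thrombospondin 1, had 0.58 (SE 0.22), and BCAM, the gene of a receptor for the laminin alpha 5 chain, had 0.35 (SE 0.14). With PBS replicate 4 left out, 4 (18.2%) were higher and 0 lower, where 2.83% of all tested genes were higher and 3.36% lower, with a median of 0.22 beside -0.00332. In that fit NPNT had 0.49, CD82 0.47, THBS1 0.38 and BCAM 0.23. CD63 had 0.16 there and no longer passed (unadjusted p = 0.0702, limma). The count of 5 became 12 without PBS replicate 2, 8 without PBS replicate 1, 3 without gluconate replicate 2, 2 without PBS replicate 3 or gluconate replicate 3, and 1 without gluconate replicate 4. TAGLN, a gene of the smooth muscle list, was at 7.18 to 33.9 FPKM in PBS and 25.6 to 53.5 FPKM in gluconate libraries (log2 fold change 1.27, unadjusted p = 0.0122, limma), and it made up most of that list's summed FPKM of 10.8 to 38.2 in PBS and 29.8 to 57.8 in gluconate libraries. The other genes of the list passed no test, with ACTA2 at 0.52, CNN1 at -0.13 and DES at -0.34 on the log2 scale and MYH11 at no more than 0.291 FPKM. The part of TAGLN and of the fibroblast genes in the values above was not tested.

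In the genome (GENCODE 29, GRCh38), some members are neighbours. LAMB1 and LAMB4 lie 20293 bases apart on chromosome 7, with means of 21.5 and 0.00170 FPKM. ITGA1 and ITGA2 lie 30116 bases apart on chromosome 5, with means of 1.59 and 0.703 FPKM. On chromosome 16, ITGAX and ITGAM lie 22242 bases apart with means of 0.891 and 0.831 FPKM, and ITGAD, 10315 bases from ITGAX, had a mean of 0.00494 FPKM. Exons of 22 of the 36 members share bases with another annotated gene, for 18 of them with a gene on the other strand, ITGB1 and ITGAV included, and whether strand was used in counting is not given in the sources used here, so reads of such pairs cannot be told apart.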

How the data were processed

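Expression was measured by RNA-seq of polyA RNA, sequenced as paired reads of 150 bases, in 8 OVCAR8 tumor libraries. Values of 24196 genes, listed by symbol, were deposited by the authors as FPKM. The build is GRCh38 according to the submitters' processing notes, and the aligner, counter and annotation are not given in the sources used here. Columns are named by a letter and a number, and the letter C was read as PBS and T as gluconate from the title and axis of the study's own plot and because only these groups have 4 libraries. Where the study's text describes this RNA-seq it calls the treated material cells and not tumors, and the labels, which say tumors, were followed. The 12 libraries of knockout cells and their controls were not analysed here.

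Fragments were recovered from the steps of the FPKM values: 100% of values were whole within 0.001 fragments. They gave depths of 3953206 to 46551535, Poisson intervals at 95% and the floor of 3 fragments, which cover counting error only. log2(FPKM + 0.1) was fitted with limma 3.58.1 (trend, two-sided) in R 4.3.3 for genes with a mean of at least 0.5 FPKM, with Benjamini-Hochberg adjustment, and the fit was tested on simulated data. Python 3.11.15 and GENCODE 29 served for the summaries. Every member was accounted for, except 1 of the 37 genes that meet the symbol rule, which is not reported here. Values in each library are given for members with a mean of at least 10 FPKM, an unadjusted p under 0.05 with all libraries or without PBS replicate 4, groups without overlap, or PBS replicate 4 at least 2-fold outside the others, and genes of the lists are named at an unadjusted p under 0.05. RAP1A and NPNT were given in each library, and CD82 by its range, after their values were seen. The members and lists were chosen with earlier results of these data known. Results were recomputed under 17 other settings and under 1 chosen after seeing the data, a replicate block without PBS replicate 4. ITGB6 and ITGA11 were also fitted with no minimum and without that library, likewise chosen after seeing the data.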

Additional observations from a re-analysis of the deposited data

Results flagged for a closer look

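Dixon's test at the 95% level was applied to 82 groups of 4 values (members, chain sums and library depth), and 6 passed its critical value, where chance passes about 1 in 20. In PBS tumors, ITGB1 was at 175 FPKM in replicate 1 and 134 to 136 FPKM in the others. ITGAM was at 1.36 FPKM in PBS replicate 4 against 0.718 to 0.764 FPKM, and LAMB4 was at 0.00831 FPKM, from 3 fragments, in PBS replicate 3 and at 0 in the others, where the test passes by construction. In gluconate tumors, replicate 1 was low for ITGA7, at 0.285 FPKM against 0.388 to 0.398 FPKM, and high for LAMA4, at 0.276 FPKM against 0.121 to 0.146 FPKM. The depth of PBS replicate 4, at 3953206 fragments, was below the 39895393 to 46551535 of the other PBS libraries.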

How the results depend on the processing

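Over 17 other settings and 1 chosen after seeing the data (a further such fit covered ITGB6 and ITGA11 only), 3 to 4 members passed an unadjusted p of 0.05 (limma) under every setting that kept all libraries, and 1 to 4 when 1 library was left out, but not always the same members. LAMB3 passed on the lower side by median ratio, quantile, voom and the replicate block, and ITGB2 by voom with weights (-0.64). ITGAV missed the threshold with no minimum and with the block, and ITGB1 by median ratio. With no minimum, ITGB6 and ITGA11 passed. ITGB5, ITGB1 and ITGAV stayed above 0 in all of these settings. With no minimum, 1028 genes passed in place of 577, since more genes were tested, and leaving out a library gave 267 to 1214 genes, 1 to 7 adaptor genes and 1 to 12 partner genes. With voom and sample quality weights 3 partner genes passed. The cause was not tested. The median log2 fold change of the members was -0.06 to 0.12 when a library was left out.

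Log2 fold changes that changed sign passed no test in either fit. They were ITGA2 (-0.073 by quantile normalization, -0.078 by voom and -0.14 by voom with weights), ITGA3 (-0.023 by median ratio scaling), ITGAE (-0.015 and -0.038 by the voom fits), ITGB4 (-0.013 and -0.089 by the voom fits), LAMA1 (-0.032 by median ratio, -0.00165 by quantile and -0.029 by voom) and LAMB1 (-0.047, -0.014, -0.054 and -0.077 by median ratio, quantile, voom and voom with weights). When 1 library was left out, the ranges were -0.21 to 0.45 for ITGA2, -0.033 to 0.14 for ITGA3, -0.13 to 0.031 for ITGA4, -0.16 to 0.83 for ITGA9, -0.066 to 0.22 for ITGAE, -0.24 to 0.040 for ITGAM, -0.061 to 0.22 for ITGB4, -0.098 to 0.18 for LAMA1 and -0.11 to 0.10 for LAMB1.

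Same-numbered libraries deviated together by r = -0.178 to 0.165 over genes, and 2 of 4 PBS libraries correlated best with their own number. Whether same-numbered libraries were handled together is not given by the labels, and these correlations cannot settle it. With the replicate block, 3 members (ITGB1, ITGB5 and LAMB3) and 470 genes passed. With the replicate block and without PBS replicate 4, the fit chosen after seeing the data, 3 members and 567 genes passed, and the signs turned for ITGA2 (-0.19), ITGA3 (-0.036), ITGA9 (-0.089), ITGAE (-0.11), ITGAM (0.033), ITGB4 (-0.18) and LAMB1 (-0.044). Depth limits the low genes most in PBS replicate 4.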
